A study of Mus musculus with 24 samples.

Results

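The neuronal cytoskeleton and growth genes described here are Tubb3, Dcx, Mapt, Nefl, Nefm, Nefh, Map1b, Gap43 and Stmn2. They were found by symbol in the deposited expression table, where Map1b is listed under its older symbol Mtap1b, and all 9 were among the 21553 genes with counts and among the 16627 genes that passed the filter on low counts. Exons and introns of the same genes were taken from the deposited splicing table. RNA of mouse cells had been sequenced at 4 stages: ESCs (embryonic stem cells), NPCs (neural progenitors, day 7 of differentiation), PSA-NCAM+ cells (day 10, purified with beads that bind polysialylated neural cell adhesion molecule), and neurons replated on day 7 and kept for 14 more days. Each stage was sampled 3 times in wild-type (WT) cells and 3 times in slow/slow cells, 24 samples in all. Slow/slow cells carry, on both alleles of Polr2a, an arginine-to-histidine change in the largest subunit of RNA polymerase II, introduced into E14 ESCs by homologous recombination in successive rounds, and the comparison of genotypes asks how a slower polymerase affects gene expression as neurons form. How many targeted clones were used was not given, so genotype and cell line cannot be told apart. Nor can genotype and plating density in NPCs and PSA-NCAM+ cells, since WT cells were plated at a density of 1 and slow/slow cells at 3 (×10e4 per cm2). Neurons were replated from cultures of day 7, so this density may bear on them too, which was not tested. Per the methods, RNA of ESCs, NPCs and neurons came from independent differentiation experiments. For PSA-NCAM+ cells the source of the replicates was not given. The p-values rest on a spread per gene estimated over all 24 samples, PSA-NCAM+ cells included. They do not measure the spread between experiments of the compared stage alone.

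Neurons build their processes on microtubules and on neurofilaments. Tubb3 encodes the neuronal class III β-tubulin, and Dcx (doublecortin), Mapt (tau) and Map1b encode proteins that bind and stabilise microtubules, whereas Stmn2 (SCG10) encodes a stathmin that binds free tubulin and destabilises them. Nefl, Nefm and Nefh encode the light, medium and heavy neurofilament subunits, which assemble together into the intermediate filaments of axons, Nefl forming the core and Nefh typically being the last to accumulate as axons mature. Gap43 encodes a membrane-bound phosphoprotein concentrated in growth cones. Dcx marks migrating young neurons and Tubb3, Map1b, Stmn2 and Gap43 are typical of neurons that extend neurites.

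Total counts per sample ranged from 32974432 to 104466886, and the lowest count of any of the 9 genes in any sample was 5, for Dcx in WT NPCs. Levels are given below as CPM, counts per 1000000 reads of the library total as scaled by TMM, in the order of replicates 1, 2 and 3, and changes are log2 ratios of slow/slow over WT cells, unless another comparison is named, ± their standard error, with the FDR (Benjamini-Hochberg adjusted p) of edgeR's quasi-likelihood test over all 16627 genes. The Polr2a change itself cannot be seen in counts per gene, so it does not check the genotype labels here. Within the PSA-NCAM+ stage the libraries numbered 1 stood apart in both genotypes: the root mean square log2 difference to the other 2 replicates was 0.949 and 1.01 in slow/slow and 0.703 and 0.705 in WT cells, against 0.278 to 0.428 in all other pairs of replicates of one group. Summed markers of mesenchymal cells (Col1a1, Col1a2, Col3a1 and Pdgfrb) were at 517 and 661 CPM in those WT and slow/slow libraries and at 189 to 279 and 144 to 172 CPM in the other PSA-NCAM+ libraries. The counting may or may not have used the strand, which was not stated. Nefl (chromosome 14, 68083863 to 68089095, plus strand, GRCm38) lies within the span of Nefm (68082590 to 68124846, minus strand), Tubb3 shares its strand and part of its span with the predicted gene Gm20388, as Map1b does with 5330431K02Rik, and Mapt has the antisense gene Gm11659, so reads of these pairs may have been split or shared. Reads of Tubb3 may also be shared with other β-tubulins of near-identical coding sequence.

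Neurons held by far the most RNA of 8 of the 9 genes. Per kilobase of counting length, the only scale on which genes can be set beside each other, the highest means in WT neurons were those of Stmn2 (592 CPM per kb), Gap43 (587) and Tubb3 (565), followed by Mapt (193), Map1b (173), Nefl (165) and Dcx (125), with Nefm (16.6) and Nefh (5.33) last. In slow/slow neurons Tubb3 led at 725 CPM per kb, Gap43 and Stmn2 were next at 277 and 274, and the order went on with Nefl (211), Dcx (109), Map1b (77.7), Mapt (64.7), Nefm (42.3) and Nefh (1.05). For the 8 genes other than Nefh, the WT and slow/slow neuron means were the highest 2 of the 8 group means. The plot of levels by sample shows this, and shows that Nefh did not follow it.

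**Figure D1:**
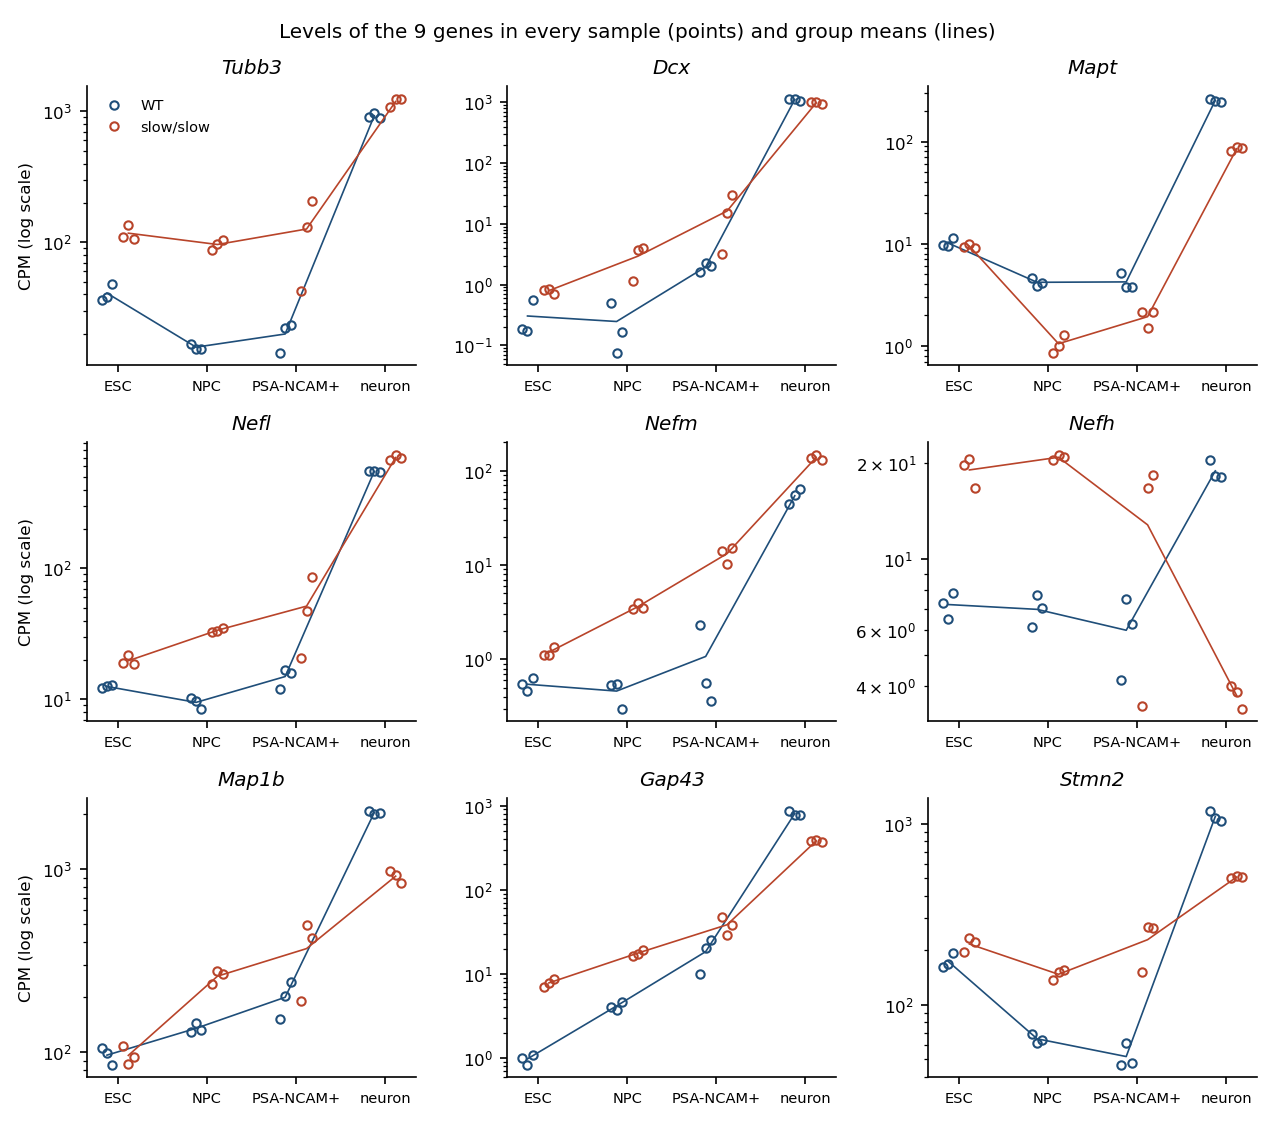
Each panel plots 1 gene, with the level of each of the 24 samples (points; log scale, TMM-scaled CPM) by stage for WT and slow/slow cells and lines through the means of the 3 replicates. Neurons stand above every earlier stage for 8 of the genes, whereas Nefh in slow/slow neurons (3.40 to 3.99 CPM) lies below its level in slow/slow NPCs (20.4 to 21.3 CPM).

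Before the neuron stage the 9 genes were mostly higher in slow/slow cells. In ESCs 3 of them passed the test, all higher (40.4% of all genes tested passed in ESCs, in either direction). NPCs had 8 higher and 1 lower (56.7%), as did PSA-NCAM+ cells, with 8 higher and 1 lower (56.7%). In neurons 1 was higher and 5 were lower (51.9%). The median log2 change of the 9 was 1.09, 1.83 and 1.79 at these 3 early stages and -1.08 in neurons, whereas the medians of all genes tested were -0.02, 0.01, -0.01 and -0.06. Since these are bulk samples, fewer cells of a type and less RNA per cell cannot be told apart.

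**Figure D2:**
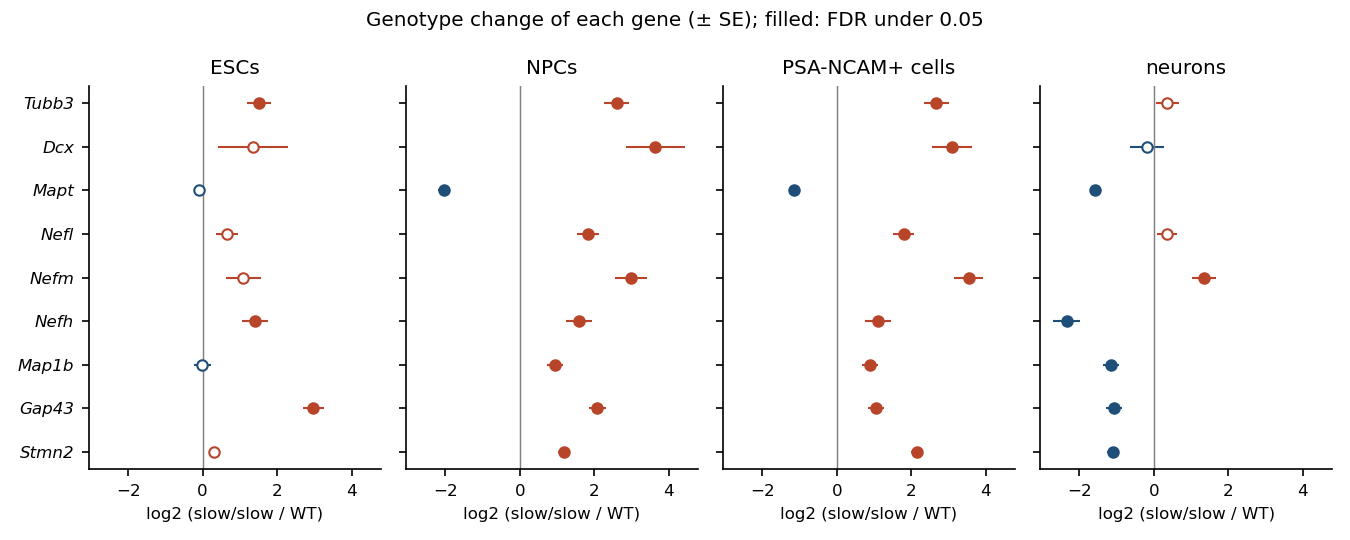
The log2 change of slow/slow over WT cells (horizontal axis) is plotted for the 9 genes at each of the 4 stages, with bars for the standard error, filled points where the FDR was under 0.05 and open points elsewhere. Mapt lies below 0 from NPCs on, and the points of Nefh, Map1b, Gap43 and Stmn2 go from above 0 in NPCs to below 0 in neurons.

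Tubb3 (chromosome 8, 123411424 to 123422015, plus strand, GRCm38 as for all gene coordinates here) was higher in slow/slow cells at the 3 early stages. Its levels were 36.3, 38.2 and 48.3 CPM in WT samples and 111, 135 and 107 in slow/slow ESCs, 2.87-fold higher in the slow/slow cells (1.52 ± 0.32, FDR 0.000769). In NPCs they were 16.7, 15.4 and 15.4 CPM in WT samples and 87.3, 97.2 and 104 in slow/slow cells (6.08-fold higher, 2.61 ± 0.33, FDR 2.34e-06). PSA-NCAM+ cells held 14.4, 22.3 and 23.2 CPM in WT samples and 42.8, 131 and 205 in slow/slow cells (2.67 ± 0.33, FDR 1.44e-06). The groups did not overlap at any of these stages, although the slow/slow PSA-NCAM+ library numbered 1 lay well below the others of its group. In neurons, where Tubb3 was most abundant, the levels were 914, 980.1 and 889 CPM in WT samples and 1081, 1251 and 1240.1 in slow/slow cells. These groups did not overlap either, but the change of 0.36 ± 0.31, FDR 0.346, did not pass the test, and it passed only when neurons were fitted alone (log2 change 0.43, FDR 9.99e-05).

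Dcx (chromosome X, 143855842 to 143933311, minus strand) was low before the neuron stage. In ESCs its levels were 0.182, 0.172 and 0.557 CPM in WT samples and 0.814, 0.859 and 0.712 in slow/slow cells (1.35 ± 0.93, FDR 0.263). NPCs held 0.499, 0.0755 and 0.165 CPM in WT samples and 1.15, 3.65 and 4.02 in slow/slow cells (3.64 ± 0.79, FDR 0.00064), where the WT values rest on 5 to 24 reads and the log2 change was 4.54 without WT replicate 1. In PSA-NCAM+ cells the values were 1.60, 2.28 and 2.00 CPM in WT samples and 3.23, 15.2 and 30.4 in slow/slow cells (3.09 ± 0.53, FDR 6.22e-05), and the log2 change was 2.32 without slow/slow replicate 3. Slow/slow samples lay above all WT samples at each of these stages, and the rise passed the test in NPCs and in PSA-NCAM+ cells. In neurons Dcx reached 1139, 1150.5 and 1063 CPM in WT samples and 1014, 998 and 935 in slow/slow cells. The slow/slow values were the lower ones, without overlap but by little (-0.19 ± 0.45, FDR 0.753), and the change passed only when neurons were fitted alone (-0.11, FDR 0.0467).

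Mapt (chromosome 11, 104231390 to 104332090, plus strand) was the one gene of the 9 that was lower in slow/slow NPCs and PSA-NCAM+ cells. In ESCs it was at 9.59, 9.58 and 11.3 CPM in WT samples and 9.34, 10.0 and 8.98 in slow/slow cells, with overlapping groups (-0.10 ± 0.13, FDR 0.574). In NPCs the levels were 4.60, 3.82 and 4.12 CPM in WT samples and 0.854, 1.00 and 1.28 in slow/slow cells (-2.02 ± 0.16, FDR 5.61e-09), a 4.07-fold lower level. In PSA-NCAM+ cells they were 5.11, 3.79 and 3.75 CPM in WT samples and 2.12, 1.49 and 2.16 in slow/slow cells (-1.15 ± 0.15, FDR 1.68e-06). Mature WT neurons held 263, 251 and 245 CPM and slow/slow neurons 80.1, 89.0 and 85.7 CPM, 2.98-fold less (-1.57 ± 0.13, FDR 6.65e-09). At these last 3 stages every slow/slow sample lay below every WT sample.

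Map1b (chromosome 13, 99421446 to 99516540, minus strand) stood, in ESCs, at 105, 98.8 and 85.4 CPM in WT samples and 108, 85.9 and 94.3 in slow/slow cells, and the groups overlapped (FDR 1). In NPCs it was higher in slow/slow cells, with 128, 144 and 132 CPM in WT samples and 235, 277 and 269 in slow/slow cells (0.95 ± 0.22, FDR 0.00123) and no overlap. PSA-NCAM+ cells held 152, 204 and 243 CPM in WT samples and 191, 494 and 421 in slow/slow cells, and here the slow/slow library numbered 1 lay within the WT range (0.88 ± 0.22, FDR 0.00205). In neurons the direction was the opposite. Map1b was at 2091, 2005 and 2023 CPM in WT samples and 984, 929 and 837 in slow/slow neurons, 2.22-fold lower in slow/slow cells and without overlap (-1.15 ± 0.22, FDR 0.000212).

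Stmn2 (chromosome 3, 8509360 to 8561606, plus strand) was already abundant in ESCs, with 161, 168 and 194 CPM in WT samples and 197, 233 and 221 in slow/slow cells (0.32 ± 0.15, FDR 0.107). It was higher in slow/slow NPCs, at 69.2, 61.4 and 64.1 CPM in WT samples and 136, 151 and 155 in slow/slow cells (1.18 ± 0.16, FDR 2.93e-06). The same held in PSA-NCAM+ cells, with 46.7, 61.2 and 47.5 CPM in WT samples and 152, 269 and 266 in slow/slow cells (2.15 ± 0.16, FDR 1.60e-09). Slow/slow samples lay above all WT samples at these stages, and the rise passed the test in the last 2. Neurons again showed the reverse, with 1182, 1081 and 1034 CPM in WT samples and 504, 515 and 506 in slow/slow neurons, 2.16-fold lower in slow/slow cells (-1.11 ± 0.15, FDR 5.53e-06).

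The 3 neurofilament genes rose together in slow/slow NPCs and PSA-NCAM+ cells and then parted in neurons. Nefl was at 12.1, 12.6 and 12.9 CPM in WT samples and 19.0, 21.7 and 18.5 in slow/slow ESCs (0.65 ± 0.29, FDR 0.0742) and at 10.2, 9.78 and 8.49 CPM in WT samples and 32.8, 33.5 and 34.8 in slow/slow NPCs (1.83 ± 0.29, FDR 2.58e-05). In PSA-NCAM+ cells it was at 12.1, 16.9 and 15.9 CPM in WT samples and 20.7, 47.4 and 86.5 in slow/slow cells (1.79 ± 0.28, FDR 2.39e-05). In neurons it was at 556, 552 and 541 CPM in WT samples and 667, 738 and 699.7 in slow/slow cells, a rise without overlap that did not pass the test (0.35 ± 0.27, FDR 0.287) except in a fit of the neuron samples alone (0.43, FDR 5.34e-06).

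Nefm, the medium subunit, was nearly silent early on in WT cells. Its levels were 0.547, 0.459 and 0.629 CPM in WT samples and 1.11, 1.10 and 1.36 in slow/slow ESCs (1.09 ± 0.48, FDR 0.0736). NPCs held 0.541, 0.543 and 0.300 CPM in WT samples and 3.40, 3.94 and 3.55 in slow/slow cells (2.98 ± 0.43, FDR 9.88e-06), and PSA-NCAM+ cells 2.30, 0.564 and 0.358 CPM in WT samples and 14.2, 10.2 and 15.3 in slow/slow cells (3.54 ± 0.38, FDR 2.15e-07), where the change was 4.86 without WT replicate 1 and 4.81 without both libraries numbered 1. In neurons Nefm was at 44.5, 55.1 and 63.5 CPM in WT samples and 137, 148 and 132 in slow/slow cells. It was 2.56-fold higher in slow/slow cells (1.35 ± 0.33, FDR 0.00167), the only one of the 9 genes that passed the test as higher in neurons. The groups did not overlap at any stage.

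Nefh (chromosome 11, 4938754 to 4948064, minus strand), the heavy subunit, went the other way in neurons. In ESCs it was higher in slow/slow cells, at 7.29, 6.51 and 7.83 CPM in WT samples and 19.8, 20.7 and 16.7 in slow/slow cells (1.40 ± 0.35, FDR 0.00309), as it was in NPCs, at 6.14, 7.71 and 7.05 CPM in WT samples and 20.4, 21.3 and 21.0 in slow/slow cells (1.58 ± 0.35, FDR 0.000727). PSA-NCAM+ cells held 4.19, 7.53 and 6.25 CPM in WT samples and 3.47, 16.7 and 18.3 in slow/slow cells. These groups overlapped through the slow/slow library numbered 1, and the change of 1.11 ± 0.35, FDR 0.0101, was not called without WT replicate 1 (0.91, FDR 0.0532) or without slow/slow replicate 3 (0.80, FDR 0.0657). In neurons the levels were 20.5, 18.2 and 18.1 CPM in WT samples and 3.99, 3.82 and 3.40 in slow/slow cells, a 5.05-fold lower level without overlap (-2.34 ± 0.36, FDR 2.01e-05). Thus slow/slow neurons held more Nefm and less Nefh than WT neurons, whereas Nefl did not pass the test.

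Gap43 (chromosome 16, 42248442 to 42340651, minus strand) was already higher in slow/slow ESCs, at 1.00, 0.832 and 1.10 CPM in WT samples and 6.94, 7.71 and 8.76 in slow/slow cells, 7.84-fold more (2.97 ± 0.28, FDR 8.14e-08). It was also higher in slow/slow NPCs, with 4.06, 3.76 and 4.66 CPM in WT samples and 16.3, 17.3 and 19.4 in slow/slow cells (2.08 ± 0.23, FDR 4.53e-07), and in PSA-NCAM+ cells, with 9.84, 20.3 and 25.0 CPM in WT samples and 47.6, 29.4 and 38.1 in slow/slow cells (1.06 ± 0.22, FDR 0.00033). Without both PSA-NCAM+ libraries numbered 1 that change was 0.57. None of these groups overlapped. In neurons Gap43 was at 869.7, 769 and 775 CPM in WT samples and 383, 393 and 365 in slow/slow cells, 2.12-fold lower in slow/slow cells and again without overlap (-1.08 ± 0.21, FDR 0.000255). In PSA-NCAM+ cells the calls of Gap43, Map1b and Nefh were lost when only the PSA-NCAM+ samples were fitted (1.04, 0.86 and 1.07, FDR 0.0855, 0.127 and 0.228).

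The stages were then compared within each genotype, to follow how the genes were switched on. From ESCs to NPCs, 4 of the 9 genes passed in WT cells (65.6% of all genes), Gap43 higher (log2 change 2.07) and Tubb3 (-1.37), Mapt (-1.28) and Stmn2 (-1.42) lower. In slow/slow cells 7 passed (62.3%). Of these, 5 were higher (Dcx 1.81, Nefl 0.77, Nefm 1.61, Map1b 1.44 and Gap43 1.18) and 2 lower (Mapt -3.20 and Stmn2 -0.56). The calls of Dcx and Nefl in slow/slow cells were kept in 1 and 3 of 6 fits without 1 sample each, with FDR up to 0.0960 (without slow/slow NPC replicate 3) and 0.0670 (without slow/slow ESC replicate 3).

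From NPCs to PSA-NCAM+ cells, 4 genes rose in WT cells (41.3% of all genes passed) and 5 in slow/slow cells (42.3%). The WT genes were Dcx 3.10, Nefm 1.32, Map1b 0.56 and Gap43 2.14, and the slow/slow genes Dcx 2.55, Mapt 0.90, Nefm 1.87, Gap43 1.12 and Stmn2 0.64. Nefm in WT cells rested on the PSA-NCAM+ library numbered 1 (2.30 CPM against 0.56 and 0.36), without which its log2 change was -0.0017, and it was also not called without WT NPC replicate 3 (1.07, FDR 0.114). The call of Map1b in WT cells (FDR 0.0467) was kept in 1 of 6 such fits, and the change in Map1b ranged from 0.40 (without WT PSA-NCAM+ replicate 3) to 0.73 over them. The change in Dcx was 3.995 in WT cells without WT NPC replicate 1 and 1.78 in slow/slow cells without slow/slow PSA-NCAM+ replicate 3. Without the slow/slow PSA-NCAM+ library numbered 1 the count in slow/slow cells was 8, and without both libraries numbered 1 it was 9 (and 6 in WT cells), whereas 2 were called in a fit of the slow/slow NPC and PSA-NCAM+ samples alone.

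From NPCs to neurons all 9 genes rose in WT cells (80.2% of all genes passed, in either direction), by 1.44 (Nefh) to 12.27 (Dcx) on the log2 scale (Dcx by 13.15 without WT NPC replicate 1). Tubb3 rose by 5.87, Mapt by 5.92, Nefl by 5.86, Nefm by 6.89, Map1b by 3.92, Gap43 by 7.59 and Stmn2 by 4.08. In slow/slow cells 8 rose and Nefh fell (75.0%). The rises there were Tubb3 3.63, Dcx 8.45, Mapt 6.37, Nefl 4.38, Nefm 5.26, Map1b 1.82, Gap43 4.43 and Stmn2 1.79, and Nefh changed by -2.48. The difference between the genotypes in this step was itself tested as an interaction, and it passed for 8 of the 9 genes, all with the smaller rise, or for Nefh a fall, in slow/slow cells (55.1% of all genes passed). Mapt was the exception, with a rise that was 0.45 larger in slow/slow cells (FDR 0.071). Nefm was not called without WT NPC replicate 3 (-1.37, FDR 0.0591). The slow/slow NPCs started from higher levels of these 8 genes, and for Tubb3, Dcx and Nefl the comparison of neurons did not pass the test. In the other steps, the interaction passed for 5 genes between ESCs and NPCs (24.6% of all genes; 2 to 3 genes without any 1 of the 12 samples) and for 3 genes between NPCs and PSA-NCAM+ cells (14.6%).

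**Figure D3:**
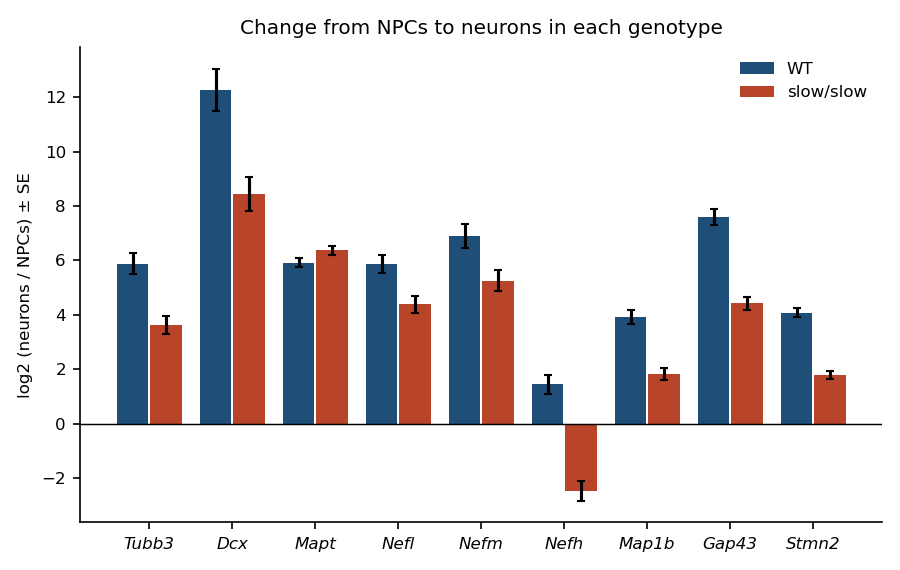
For each of the 9 genes, the log2 change from NPCs to neurons is plotted for WT and slow/slow cells, as bars with whiskers for the standard error. WT cells show the larger rise for every gene except Mapt, and Nefh in slow/slow cells is the only value below 0.

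Levels of other cell types' markers moved with these changes. In neurons, summed markers of mature neurons (Rbfox3, Syn1, Snap25, Map2, Elavl3 and Elavl4) were at 1789 to 1925 CPM in WT samples and 1262 to 1341 in slow/slow samples, with 3 of 6 lower and 0 higher. Astrocyte markers were at 166 to 205 and 84.4 to 96.2 CPM (3 of the 4 tested lower, 1 higher), and markers of the oligodendrocyte lineage at 64.8 to 84.5 and 20.5 to 24.3 CPM (2 of 5 lower, 2 higher). Higher in slow/slow neurons were mesenchymal markers (211 to 266 and 549 to 585 CPM, 4 of 4 higher), peripheral neuron markers (92.0 to 115 and 181 to 205 CPM, 3 of 4), dividing cell markers (396 to 503 and 673 to 745 CPM, 3 of 4) and progenitor markers (349 to 422 and 579 to 649 CPM, 3 of the 3 analysed here). Endoderm markers overlapped in their sum (48.8 to 56.6 and 45.5 to 60.9 CPM), with 5 of 6 higher and 1 lower, and pluripotency markers were low (88.9 to 119 and 62.5 to 69.5 CPM, 3 of 4 higher and 1 lower). No marker was at 0 in all 3 neuron samples of a genotype, but the astrocyte marker S100b (up to 0.164 CPM in neurons) was at 0 in at least 1 slow/slow sample, and Afp, an endoderm marker at 7.83 to 11.8 CPM in slow/slow neurons, in at least 1 WT sample. The part of these differences in the lower Mapt, Nefh, Map1b, Gap43 and Stmn2 was not tested.

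At the earlier stages all neuron markers that passed were higher in slow/slow cells. So were 8 of the 9 genes in NPCs and PSA-NCAM+ cells, where Mapt was lower, and 3 of the 9 in ESCs. The sum of the neuron markers was 13.2 to 14.1 CPM in WT samples and 29.6 to 31.9 in slow/slow samples of ESCs (3 of 6 higher), 25.4 to 28.2 and 38.5 to 47.1 CPM in NPCs (4 of 6) and 19.4 to 31.1 and 36.2 to 98.5 CPM in PSA-NCAM+ cells (6 of 6). Pluripotency markers (Pou5f1, Nanog, Zfp42 and Esrrb) were still at 1785 to 1851 CPM in WT NPCs, against 4863 to 5318 CPM in WT ESCs, and at 1083 to 1194 CPM in slow/slow NPCs. In PSA-NCAM+ cells they were at 1163 to 1494 CPM in WT samples and 447 to 583 in slow/slow samples, 3 of 4 lower at each of these stages. Progenitor markers were at 272 to 288 and 334 to 361 CPM in NPCs (2 of 3 higher, 0 lower) and 194 to 253 and 444 to 547 CPM in PSA-NCAM+ cells (3 of 3 higher). Most of the sum in NPCs was Sox2, at 235 to 250 CPM in WT and 204 to 215 CPM in slow/slow samples. Sox2 was higher still in WT ESCs (380 to 387 CPM), so the sum is not specific to progenitors. The samples labelled NPC and PSA-NCAM+ thus still held substantial RNA of pluripotency genes, with a lower sum in slow/slow cells. Pou5f1 went the other way in NPCs, at 620 to 660 CPM in WT and 701 to 791 CPM in slow/slow samples. The part of this RNA in the higher levels of the 8 genes in slow/slow NPCs and PSA-NCAM+ cells was not tested.

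Tubb3 lies on chromosome 8, which stood higher as a whole in slow/slow cells. The median log2 change of the 865 tested genes on chromosome 8 was 0.45, 0.49, 0.46 and 0.44 in ESCs, NPCs, PSA-NCAM+ cells and neurons, the highest of all chromosomes at each stage. The 20 tested genes nearest to Tubb3 (chromosome 8, 123204264 to 123983122) had medians of 0.61, 0.53, 0.55 and 0.40, with 15, 13, 13 and 13 of them higher and 0, 2, 0 and 1 lower. The change in Tubb3 minus the median of its chromosome was 1.08, 2.12 and 2.21 at the 3 early stages and -0.08 in neurons. In neurons, then, Tubb3 changed by about as much as its chromosome, and at the early stages by more. Medians of the chromosomes of the other 8 genes ranged from -0.13 to 0.15. Tested genes that span over 100 kb, among which Mapt just falls (100.7 kb), had medians of -0.13, 0.04, 0.17 and -0.28 at the 4 stages, against -0.10, -2.02, -1.15 and -1.57 for Mapt, and the other 8 genes are shorter, Map1b being the longest of them at 95.1 kb and Nefl the shortest at 5.2 kb.

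**Figure D4:**
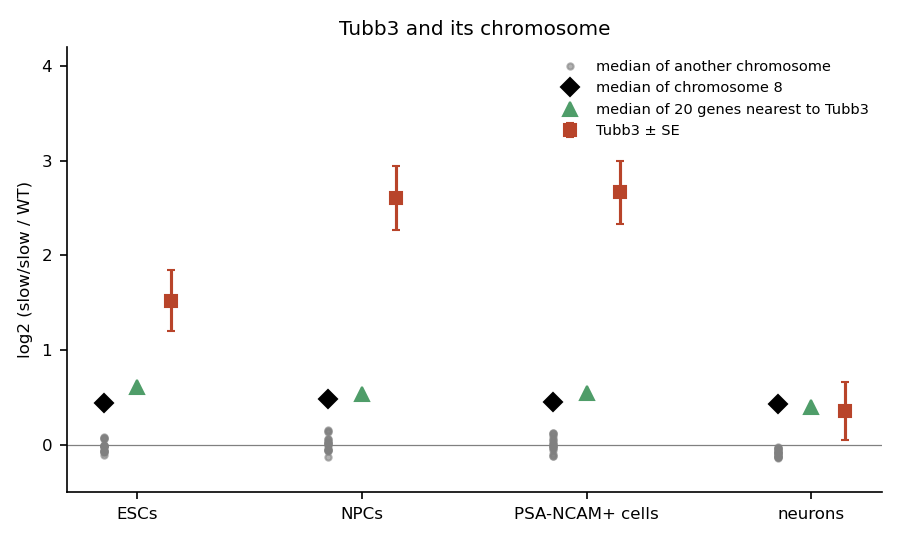
The log2 change of slow/slow over WT cells is plotted for Tubb3, with a whisker for its standard error, beside the medians of the tested genes on each chromosome (chromosome 8 as a diamond, the others as grey points) and of the 20 tested genes nearest to Tubb3, at the 4 stages. Tubb3 lies above both medians in ESCs, NPCs and PSA-NCAM+ cells (1.52, 2.61 and 2.67) and close to them in neurons (0.36).

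Other genes of the same structures were examined as fixed lists, counted under TMM scaling. Of all genes tested, 40.4% in ESCs, 56.7% in NPCs and in PSA-NCAM+ cells and 51.9% in neurons passed, in either direction. In neurons the calls among other tubulins and microtubule regulators, and among other intermediate filament genes, taken in both directions, lie near that share. Of 19 other tubulins and microtubule regulators, 4 higher and 8 lower passed in ESCs, 7 higher and 4 lower in NPCs, 10 higher and 2 lower in PSA-NCAM+ cells and 2 higher and 9 lower in neurons, with median log2 changes of -0.10, 0.01, 0.36 and -0.52. In neurons the largest rises were those of Map7, which recruits kinesin to microtubules, and Tubb4a, a β-tubulin of mature neurons and oligodendrocytes. Map7 was at 6.12 ± 0.608 CPM in WT samples and 23.3 ± 2.84 in slow/slow neurons (log2 change 1.93 ± 0.23, FDR 1.00e-06), and Tubb4a at 38.1 ± 2.21 CPM in WT samples and 96.5 ± 4.44 in slow/slow neurons (log2 change 1.34 ± 0.28, FDR 0.000458). The largest falls were those of Map9, a microtubule-associated protein at 139.7 ± 7.99 CPM in WT samples and 43.9 ± 1.46 in slow/slow neurons (log2 change -1.67 ± 0.14, FDR 1.15e-08), and Stmn4, a stathmin like Stmn2, at 422 ± 43.4 CPM in WT samples and 170.2 ± 6.14 in slow/slow neurons (log2 change -1.31 ± 0.28, FDR 0.000585).

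Of 12 other growth cone genes, 6 higher and 1 lower passed in ESCs, 8 higher and 1 lower in NPCs, 10 higher and 1 lower in PSA-NCAM+ cells and 1 higher and 7 lower in neurons (medians 0.47, 0.60, 0.79 and -0.34). As in the case of Gap43, more of them rose than fell at each early stage, and more fell than rose in neurons. Dpysl2 and Dpysl3, which encode collapsin response mediators that bind tubulin and actin, fell most. Dpysl2 was at 245 ± 16.3 CPM in WT samples and 122 ± 7.86 in slow/slow neurons (log2 change -1.01 ± 0.11, FDR 3.66e-07) and Dpysl3 at 766 ± 21.0 CPM in WT samples and 397 ± 24.8 in slow/slow neurons (log2 change -0.95 ± 0.20, FDR 0.000413). Marcks, which like Gap43 is a membrane-bound substrate of protein kinase C, was the one that passed as higher. It was at 775 ± 19.1 CPM in WT samples and 898 ± 47.5 in slow/slow neurons (log2 change 0.21 ± 0.07, FDR 0.0172).

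Of 10 axonal motor and membrane scaffold genes, 0 higher and 9 lower passed in neurons, after 3 higher and 5 lower in ESCs, 4 higher and 4 lower in NPCs and 6 higher and 1 lower in PSA-NCAM+ cells (medians -0.29, 0.06, 0.54 and -0.87). Kif1a, the kinesin that carries synaptic vesicle precursors, was at 1033 ± 52.8 CPM in WT samples and 337 ± 10.3 in slow/slow neurons (log2 change -1.62 ± 0.11, FDR 5.21e-10), and Sptbn1, a β-spectrin, at 679 ± 21.3 CPM in WT samples and 304 ± 22.5 in slow/slow neurons (log2 change -1.16 ± 0.15, FDR 3.31e-06). The 7 other intermediate filament genes did not share this direction, with 2 higher and 0 lower in ESCs, 4 higher and 1 lower in NPCs, 3 higher and 1 lower in PSA-NCAM+ cells and 3 higher and 1 lower in neurons (medians 0.24, 0.83, 0.50 and 0.18). Prph (peripherin, of peripheral neurons) was at 1.26 ± 0.225 CPM in WT samples and 2.83 ± 0.298 in slow/slow neurons (log2 change 1.17 ± 0.28, FDR 0.00159), Lmnb1 (a nuclear lamin) at 228 ± 12.9 CPM in WT samples and 331 ± 20.7 in slow/slow neurons (log2 change 0.54 ± 0.16, FDR 0.00702), and Gfap (the filament of astrocytes) at 1.57 ± 0.509 CPM in WT samples and 0.139 ± 0.0426 in slow/slow neurons (log2 change -3.50 ± 0.45, FDR 2.38e-06).

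Splicing of the 9 genes was followed as PSI, the percent of junction reads that include an exon or intron. Mapt is the best-known case. Its exons 2 and 3 each encode an insert in the amino-terminal part of tau, exon 4A a long insert of the form found in peripheral neurons, and exon 10 one of the microtubule-binding repeats, and tau without exons 2, 3 and 10 is the form known from the fetal brain. Exons were named by matching their length and the lengths of the flanking introns to the GENCODE annotation of GRCm38, since the deposited splicing coordinates are in mm9.

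In neurons exon 10 was included in 3.28%, 3.00% and 3.98% of WT and 2.58%, 2.60% and 2.70% of slow/slow transcripts, on 1903 to 2966 and 399 to 867 junction reads. The groups did not overlap, but the difference of -0.79 points was far under the 10 points needed for a call. Exon 4 (GRCm38 chr11:104294859-104294924, plus strand, 66 bases) was included in 98.3% to 99.2% of WT and 99.5% to 100.0% of slow/slow transcripts, a difference of 0.99 points. Exons 2 and 3 (chr11:104287123-104287209 and chr11:104289908-104289994, 87 bases each) lay between 0% and 0.29% in all 6 neuron samples, exon 4A (chr11:104298546-104299256, 711 bases) between 0.12% and 0.42%, and exon 8 (chr11:104307881-104307934, 54 bases) between 0.05% and 0.78%. The tau mRNA of neurons of both genotypes was therefore almost entirely without exons 2, 3, 4A, 8 and 10.

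Before the neuron stage Mapt was low and its junctions rested on few reads, so no Mapt exon passed the filters in all 6 samples of a stage, and none was tested with all samples. With 1 sample left out, 2 could be tested and were not called, exon 10 in ESCs without WT replicate 2 (-7.57 points, and -5.81 in all samples without the filter on junction balance) and an exon of 97 bases in PSA-NCAM+ cells without slow/slow replicate 1 (-14.56 points). The latter had a PSI of 12.4%, 38.4% and 52.9% in WT and 11.7%, 26.0% and 14.0% in slow/slow PSA-NCAM+ cells, on 14 to 57 reads, and the groups overlapped. Exon 4A, nearly absent from neurons, had a PSI of 57.1%, 64.3% and 48.9% in WT and 23.5%, 47.1% and 39.1% in slow/slow ESCs. In NPCs it was 100.0%, 62.5% and 61.5% in WT and 17.7%, 30% and 20% in slow/slow cells, on 21 to 30 and 9 to 13 reads. In PSA-NCAM+ cells it was 67.1%, 72.7% and 81.8% in WT and 47.4%, 37.5% and 26.5% in slow/slow cells. At all 3 stages every slow/slow sample lay below every WT sample, but exon 4A was not tested at any of them. It passed the filters in no NPC sample and, in ESCs, only in WT replicate 1. In PSA-NCAM+ cells it passed in the WT samples and in slow/slow replicate 3. The share of all exons that separate in this way is not given here. Single values are uncertain: the 95% Wilson interval, which covers counting error only, ran from 40.5% to 79.0% for WT NPC replicate 3 and from 12.2% to 56.9% for slow/slow NPC replicate 2.

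Exon 10 was included more in WT NPCs (46.3%, 35.5% and 35.1%, on 21 to 30 reads) and WT PSA-NCAM+ cells (38.6%, 72.2% and 55.6%, on 31 to 70 reads) than in any neuron sample. In slow/slow PSA-NCAM+ cells it was at 42.9%, 14.3% and 12.2%, on 15 to 23 reads, and the groups overlapped. Slow/slow NPCs had only 2 to 5 reads and give no usable value. In ESCs exon 10 was at 12.4%, 6.42% and 10.97% in WT and 5.05%, 5.19% and 2.13% in slow/slow cells, without overlap.

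**Figure D5:**
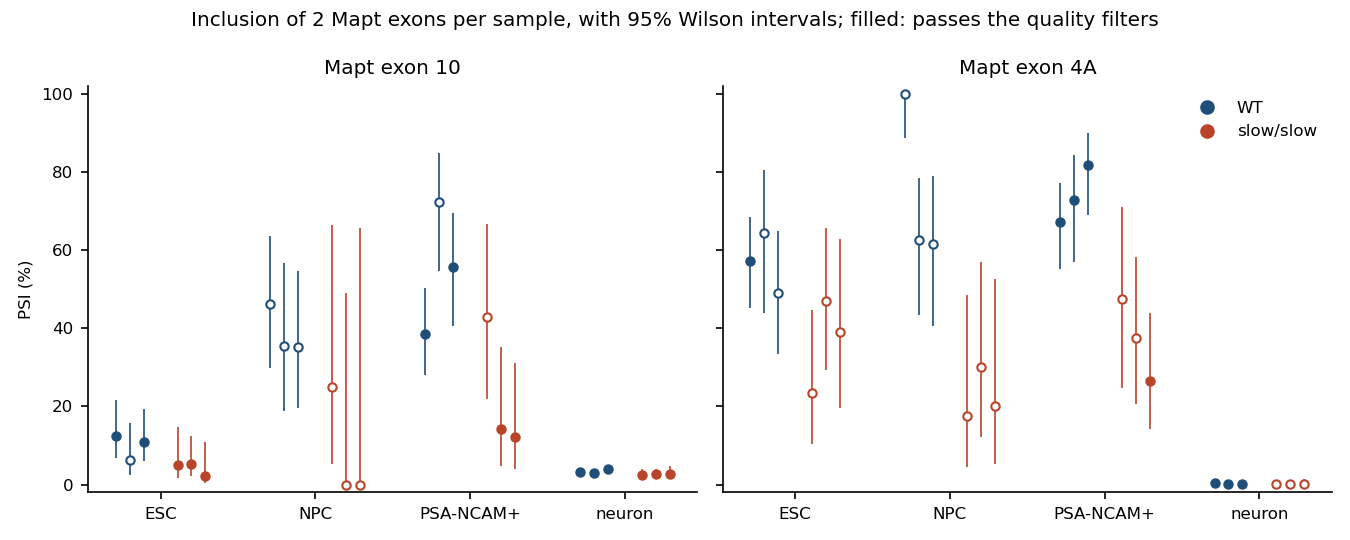
PSI of Mapt exon 4A and exon 10 (percent, vertical axis) is plotted for each sample by stage and genotype, with whiskers for the 95% Wilson interval of the junction reads and filled points where the sample passed the quality filters. Both exons are near 0% in all neuron samples, and the intervals at the earlier stages are wide because few reads cover them.

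Dcx had enough reads in neurons for its alternative 5′ splice sites. At 2 exon ends a site farther downstream adds codons to doublecortin, and both are shown because they are the forms whose share could be measured. Sequences are GRCm38, minus strand, all coding, with the bases that the downstream site adds in capitals (chrX:143875755-143875799 for the 15-base and chrX:143870607-143870639 for the 3-base extension):
Dcx 15-base extension: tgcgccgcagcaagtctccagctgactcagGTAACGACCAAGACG
Dcx 3-base extension: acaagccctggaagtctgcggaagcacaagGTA

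The 15-base extension was used in 85.1%, 85.0% and 86.4% of WT and 82.1%, 82.7% and 83.6% of slow/slow neuron transcripts, on 851 to 1349 and 371 to 1043 reads, without overlap. The 3-base extension was used in 57.6%, 57.8% and 58.0% of WT and 57.1%, 54.1% and 54.0% of slow/slow transcripts, also without overlap. Splice-site use was not tested. A microexon of 3 bases listed for Dcx, which shares its length and flanking exons with the 3-base extension and may be the same bases, was included in 57.3% to 58.7% of WT and 55.0% to 57.4% of slow/slow transcripts, a difference of -2.12 points.

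Tested as a whole, splicing of the 9 genes gave 0 calls. In neurons 3 of their exons could be tested (Mapt exons 4 and 10 and the Dcx microexon) and 0 were called, where 3.55% of all exons were. Of these, 2 had an unadjusted p under 0.05 and 0 an FDR under 0.05 by limma on the same reads. Without the filter on junction balance 10 of their exons were tested in neurons, 0 called (3.40% of all exons), and differences ranged from -2.12 to 0.99 points. None of their exons passed the main filters in the other comparisons, in which 0.809% (ESCs), 2.93% (NPCs) and 0.966% (PSA-NCAM+ cells) of all exons were called between genotypes and 6.48% (WT) and 3.72% (slow/slow) between NPCs and neurons.

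Introns were covered better. Of the introns of the 9 genes, the ESC comparison could test 13, the NPC comparison 16, that of PSA-NCAM+ cells 13 and that of neurons 24, and 0 were called at any stage (0.0379%, 0.261%, 0.0632% and 0.213% of all introns). Differences ranged from -3.50 points (a Map1b intron in ESCs) to 1.06 points (a Map1b intron in NPCs). In neurons retention differed by -0.09 to 0.77 points, the highest in Mapt and the next in Map1b (0.75). By limma without the replicate block, 2, 6, 5 and 12 of these introns had an unadjusted p under 0.05 at the 4 stages. In neurons 5 had an FDR under 0.05. With the block these counts were 2, 5, 6 and 11, and 8. All that passed this FDR in neurons had differences under 1 point. Some introns that missed the filters in at least 1 neuron sample differed by more, and those named next are such cases. How many introns missed the filters is not given here, so no general difference in retention can be read from them. A Mapt intron of 7622 bases was at 0% to 3.07% in WT and 6.23% to 11.73% in slow/slow neurons, on 55 to 130.5 and 11.5 to 21.5 reads, and a Map1b intron of 63811 bases at 0.42% to 0.99% and 3.61% to 4.82%, on 655.5 to 1024.5 and 166 to 448.5 reads. Neither pair of groups overlapped, and neither intron was tested with all samples. Without slow/slow neuron replicate 3, 26 introns of the 9 genes were tested and 0 called, with a largest difference of 8.82 points, in another Mapt intron whose groups overlapped (4.35% to 8.57% in WT and 0% to 23.53% in slow/slow neurons).

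Across the 24 samples, which share the differences between stages, log2 levels of the 9 genes followed each other closely except for Nefh. Pearson's r between pairs of the other 8 ranged from 0.617 (Mapt and Nefm) to 0.980 (Dcx and Nefl), whereas Nefh had values from -0.116 (with Mapt) to 0.282 (with Stmn2). The 3 genes most like each of the 8 genes other than Nefh over these samples, of all genes tested, are given with the range of their r: Tubb3 with Pou4f1, Tagln3 and Polr3k (0.979 to 0.983), Dcx with Fabp7, Lrrn3 and Fstl5 (0.986 to 0.990), Mapt with Atp9a, Gnal and Mgat5 (0.982 to 0.985), Nefl with Lrrn3, Ccar2 and Lrrtm4 (0.989 to 0.991), Nefm with Dync1li2, Zfp821 and Sst (0.972 to 0.984), Map1b with Rgs7bp, Kif1b and Cntn5 (0.987 to 0.989), Gap43 with Fam171a1, Eid1 and Sh3kbp1 (0.979 to 0.988) and Stmn2 with Nudt3, Prkar2a and Elavl2 (0.974 to 0.976).

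Neighbours in the order of group means often did not separate. For Nefh, 6 of the 7 pairs of neighbouring groups overlapped in range, and only slow/slow neurons fell clear below the next group, WT PSA-NCAM+ cells. For Gap43 and Stmn2 only 1 pair overlapped each, WT PSA-NCAM+ cells and slow/slow NPCs for Gap43, and slow/slow PSA-NCAM+ cells and slow/slow ESCs for Stmn2.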

How the data were processed

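Poly(A)+ RNA of 24 samples, 3 for each of 8 groups of genotype and stage, had been sequenced, and the authors mapped the reads to mm9 and processed them with vast-tools. They deposited raw counts per gene and sample, and RPKM values that are the authors' means per group, used here only for the length by which genes had been divided. For splicing they deposited percent values of PSI per event and sample, with quality scores and read numbers. Columns of the authors' own comparisons (log2 fold changes, FDR values and a table of called events) were not used. Total counts ranged from 32974432 to 104466886, and intervals cover counting error only. The expression table listed 22667 genes, 1114 of them without values.

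The 9 genes and all lists were chosen with earlier results of these data known. Counts were tested with edgeR 4.0.16 in R 4.3.3 (filterByExpr by group, 16627 genes, TMM, quasi-likelihood F test, FDR under 0.05) in 1 model of the 8 groups over all 24 samples, with 16 residual degrees of freedom and a common biological coefficient of variation of 0.164. Standard errors were derived from the F statistic. Exons and introns were filtered as in the study (introns with at least 15 reads and a balance p of at least 0.05), with 1 exception. Microexons, such as that of Dcx, were not filtered on junction balance here, whereas the study did so. Events were called where PSI differed by over 10 points with a posterior probability of its sign over 0.95, from beta posteriors of the reads. Both tests were checked on simulated data. Gene coordinates came from the GENCODE annotation of GRCm38, in which 20451 (94.9%) of the genes with counts were found. Named were all 9 genes, the 2 called genes with the largest rise and the 2 with the largest fall of each list in neurons, the 3 genes most correlated with each of the 9 except Nefh (whose are not reported here), and Mapt exons. The marker of neural progenitors Sox1 is not analysed here.

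Same-numbered samples are not said to come from the same culture. Deviations from the group means correlated between genotypes in PSA-NCAM+ cells (0.540, 0.455 and 0.401 for replicates 1, 2 and 3), and from -0.084 to 0.068 at the other stages. The libraries numbered 1 stood apart in both genotypes of PSA-NCAM+ cells, and deviations of 3 replicates from their mean depend on each other. These values therefore cannot show that replicates 2 and 3 were paired. The main test used no pairing. Alternatives were other scalings (DESeq2 size factors, upper quartile), no filter, the replicate block, fits of only the groups compared, a DESeq2 1.42.0 Wald test, a 2-fold minimum, leaving out each sample, and for splicing stricter coverage, a minimum of 15 points and limma 3.58.1. Leaving out both PSA-NCAM+ libraries numbered 1, and dropping the filter on junction balance, were added after the data had been seen.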

Additional observations from a re-analysis of the deposited data

Results flagged for a closer look

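Values in this section are differences between 2 log2 changes of slow/slow over WT cells, tested as an interaction in the edgeR model, and they are listed because the effect of genotype differed between 2 stages. The check of a single value's gap against the range of its group was not run, since it is not defined for groups of 3 samples.

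Between NPCs and neurons the effect of genotype was lower in neurons for 8 genes, the difference being -2.25 ± 0.45 for Tubb3 (from 2.61 to 0.36), -3.82 for Dcx (-4.70 without WT NPC replicate 1), -1.48 for Nefl, -1.63 for Nefm, -3.92 for Nefh (from 1.58 to -2.34), -2.10 for Map1b (from 0.95 to -1.15), -3.17 for Gap43 and -2.30 for Stmn2 (from 1.18 to -1.11). Their FDR ranged from 5.59e-08 to 0.0153, the highest being that of Nefm, which was lost without WT NPC replicate 3 (-1.37, FDR 0.0591). All 3 slow/slow samples lay above all 3 WT samples in NPCs for these genes, and all 3 below in neurons for Dcx, Nefh, Map1b, Gap43 and Stmn2. The change of Dcx in neurons did not pass the test. The share of all genes that separate in this way is not given here. Of all genes tested, 56.7% passed between genotypes in NPCs and 51.9% in neurons. For all of these genes the effect of genotype includes the difference in plating density of NPCs, and its part was not tested.

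Between ESCs and NPCs the effect changed for Mapt (-1.92, FDR 2.45e-06), Nefl (1.18), Nefm (1.89), Map1b (0.95) and Stmn2 (0.87, FDR 0.00606). Those of Nefl, Nefm and Map1b had FDR of 0.0379, 0.0403 and 0.0311 and were called in 0, 0 and 4 of 12 fits without 1 sample each.

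Between NPCs and PSA-NCAM+ cells it changed for Mapt (0.88, FDR 0.0109), Gap43 (-1.02, FDR 0.0345) and Stmn2 (0.96, FDR 0.00576). That of Gap43 was called in 2 of 12 such fits and was lost with the replicate block (-0.971, FDR 0.0614). The change for Nefm was not called (0.55, FDR 0.574) but was 1.87 (FDR 0.00140) without WT PSA-NCAM+ replicate 1.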

How the results depend on the processing

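Counts of the 9 genes called between genotypes in NPCs, PSA-NCAM+ cells and neurons, from NPCs to neurons in either genotype, and in the interaction of that step stayed within 1.5 times their value under every alternative run. The count of 3 in ESCs was 5 with the replicate block, 7 when only ESCs were fitted and 5 by the DESeq2 Wald test, where Nefl, Nefm, Stmn2 or Dcx were added. From NPCs to PSA-NCAM+ cells, the count of 4 in WT cells was 2 with the replicate block and 2 to 4 when 1 sample was left out (2 without WT NPC replicate 3) and 6 without both libraries numbered 1, and the count of 5 in slow/slow cells was 2 when only those groups were fitted, 3 with a 2-fold minimum, 9 without both libraries numbered 1 and 5 to 8 when 1 sample was left out (8 without slow/slow PSA-NCAM+ replicate 1). The interaction count between ESCs and NPCs (5) was 8 in the groups alone, 3 with a 2-fold minimum and 2 to 3 when any 1 sample was left out. That between NPCs and PSA-NCAM+ cells (3) was 0 in an edgeR fit of the groups alone (3 of the 9 at an unadjusted p under 0.05, and 3 by the DESeq2 Wald test), 1 with a 2-fold minimum and 2 to 4 when 1 sample was left out. The replicate block changed no genotype call in PSA-NCAM+ cells, but in the interaction with NPCs Gap43 was lost (-0.971, FDR 0.0614). The causes of these differences were not tested, except that fits of fewer samples estimate the spread from those alone.

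Of single genes, 28 of 1602 values under an alternative changed sign, none of them called in the main test except Nefm from NPCs to PSA-NCAM+ cells in WT cells (-0.002 to 1.725 without 1 sample, the lowest without WT PSA-NCAM+ replicate 1, and -0.002 without both libraries numbered 1). The others were Map1b in ESCs (0.008 in the ESCs alone, -0.079 to 0.083 without 1 sample), Dcx and Nefh from ESCs to NPCs in WT cells (-1.379 to 0.308 and -0.144 to 0.015 without 1 sample, and for Nefh 0.031 with upper-quartile scaling), Mapt from NPCs to PSA-NCAM+ cells in WT cells (-0.022 with upper-quartile scaling, -0.145 to 0.109 without 1 sample, -0.142 without both libraries numbered 1), Tubb3 in the same step in slow/slow cells (-0.111 to 0.827 without 1 sample), and in its interaction Tubb3 (-0.165 with the replicate block, -0.452 to 0.488 without 1 sample), Nefl (-0.609 to 0.349 without 1 sample, 0.201 without both libraries) and Map1b (-0.317 to 0.263 and 0.087).

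Upper-quartile scaling shifted the median of all genes by 0.14 in the genotype change of neurons, -0.27 in the change from NPCs to neurons in WT cells and 0.19 in the interaction. It raised the share of calls that were higher from 45.2% to 59.2% in neurons and from 44.9% to 57.3% in that interaction. Depth limits Dcx and Nefm before the neuron stage and Mapt exons in ESCs, NPCs and PSA-NCAM+ cells.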
